A study of Arabidopsis thaliana with 6 samples.

Results

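Aliphatic glucosinolates are the methionine-derived defence compounds of Arabidopsis thaliana, and 10 genes of their synthesis and control were followed here in 6 stem libraries. The genes were taken by locus from the known pathway, by a rule that uses no measured value but was written with earlier results of these data known, and all 10 were found among the 34484 identifiers of the deposited table. They are BCAT4 (AT3G19710), MAM1 (AT5G23010) and MAM3 (AT5G23020) of side chain elongation, CYP79F1 (AT1G16410), CYP79F2 (AT1G16400), CYP83A1 (AT4G13770) and SUR1 (AT2G20610) of core structure formation, and the transcription factor genes MYB28 (AT5G61420), MYB29 (AT5G07690) and MYB76 (AT5G07700). The study set mature stems of γVPE mutants against those of wild type plants, both collected 42 days after flowering from a greenhouse at 20 °C with a daily 16 h light and 8 h dark period. γVPE is a vacuolar processing enzyme, a protease that matures proteins in the vacuole. The mutant allele and the accession of the plants are not given in the labels. The library columns named WT_V were taken as the mutant set because they are the ones left once the WT columns are matched to the wild type titles, so both sets go by their column names, WT_V (3 libraries) and WT (3 libraries).

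The level of the γVPE transcript bears on that reading. GAMMA-VPE measured 328.1, 328.1 and 325.4 FPKM in WT_V and 163.1, 164.4 and 162.7 FPKM in WT, so it was higher in the set labelled WT_V. FPKM is fragments per kilobase of gene, scaled to the library's total, and so allows levels of different genes to be set beside each other. The labels do not describe the mutation, so this level does not tell which set is the mutant, and every direction below is WT_V relative to WT. Nothing says that the 3 libraries of a set came from separate plants, and the series' own design text speaks of no replicates, so the p-values rest on a spread that may be technical.

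In plants of the cabbage order, methionine is lengthened by repeated rounds of side chain elongation before the core glucosinolate is built. BCAT4 removes the amino group of methionine, MAM enzymes add carbon to the resulting keto acid, CYP79F enzymes turn the lengthened amino acid into an aldoxime, CYP83A1 oxidises it, and SUR1 cleaves the sulfur conjugate formed from it. MYB28, MYB29 and MYB76 switch on the genes of this branch, with MYB28 known as the main regulator in leaves. When tissue is crushed, myrosinases cut the stored compounds and specifier proteins decide which toxic product forms.

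The pathway genes did not move as a block. MAM3 was 19.4 times as high in WT_V as in WT, while MAM1, its neighbour on chromosome 5, was 0.698 times as high. Both MYB28 and MYB29 were lower in WT_V, SUR1 and CYP83A1 were lower, BCAT4 and CYP79F2 were somewhat higher, and CYP79F1 and MYB76 did not pass the test. The test was limma on log2(FPKM + 1), for genes averaging at least 1 FPKM, with p-values adjusted over all 19144 tested genes by Benjamini-Hochberg at 0.05. All 10 members passed the filter, and MAM3 did so through the WT_V libraries, as its WT mean was under 1 FPKM, so its call is no support. Of the 10 genes, 3 were called higher (2 without MAM3), where 51.9% of all tested genes were called higher, and 5 were called lower, where 24.1% were called lower. The 8 called members of 10 compare with 76.0% of all tested genes in either direction, so the number of calls is close to the background. The median log2 difference of the 10 was -0.16, beside 0.17 for all tested genes.

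The same libraries differed in markers of other organs. All 9 seed markers, storage protein and oil body genes, were called higher in WT_V. Their summed level was 15552 to 15809 FPKM in WT_V and 0 to 0.0353 FPKM in WT, where 8 of the 9 were listed at 0 in every library. Of 10 flower markers, all 8 tested were called higher, with sums over the 10 of 147.8 to 153.7 FPKM in WT_V and 37.5 to 42.4 FPKM in WT. AMS and MS2 were under the filter and went different ways. AMS measured 0.349 ± 0.090 FPKM in WT_V and 0.471 ± 0.016 FPKM in WT, and MS2 0.469 ± 0.051 and 0.169 ± 0.033 FPKM (SD, n = 3). All 7 green tissue markers were called lower, with sums of 7023 to 7084 FPKM in WT_V and 10764 to 10853 FPKM in WT. Of the stem markers, all 5 tested xylem genes and all 4 phloem genes were detected in both sets and called higher in WT_V, with xylem sums of 76.5 to 78.2 FPKM against 32.5 to 33.4 FPKM in WT and phloem sums of 143.3 to 145.0 FPKM against 58.6 to 60.7 FPKM. The part of these organs in the glucosinolate differences was not tested, and in bulk tissue fewer cells of a type and less RNA per cell cannot be told apart. Of the 3 markers that myrosin cells and guard cells share or hold, FAMA did not pass (16.5 ± 0.37 FPKM in WT_V and 15.8 ± 1.29 FPKM in WT, SD, n = 3, limma adjusted p = 0.356). The other 2 were called higher. SCRM measured 38.3 ± 0.81 FPKM in WT_V and 18.8 ± 0.38 FPKM in WT (limma adjusted p = 1.27e-09). MYB60 measured 16.1 ± 1.56 FPKM in WT_V and 6.07 ± 0.81 FPKM in WT (limma adjusted p = 3.10e-07).

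**Figure D1:**
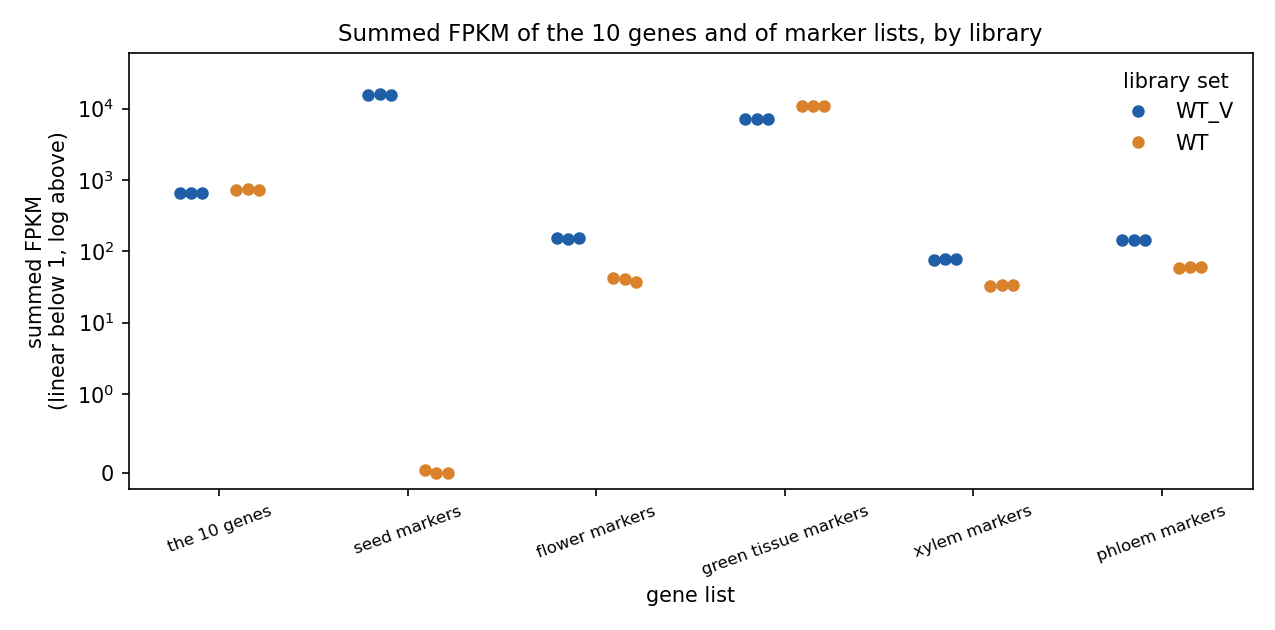
Summed FPKM of the 10 genes and of 5 marker lists in each library, with WT_V left of WT (axis linear below 1 and logarithmic above). The 10 genes sum to 653.8 to 660.9 FPKM in WT_V and 731.7 to 735.3 FPKM in WT, while the seed markers are near 0 in WT and between 15552 and 15809 FPKM in WT_V.

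**Figure D2:**
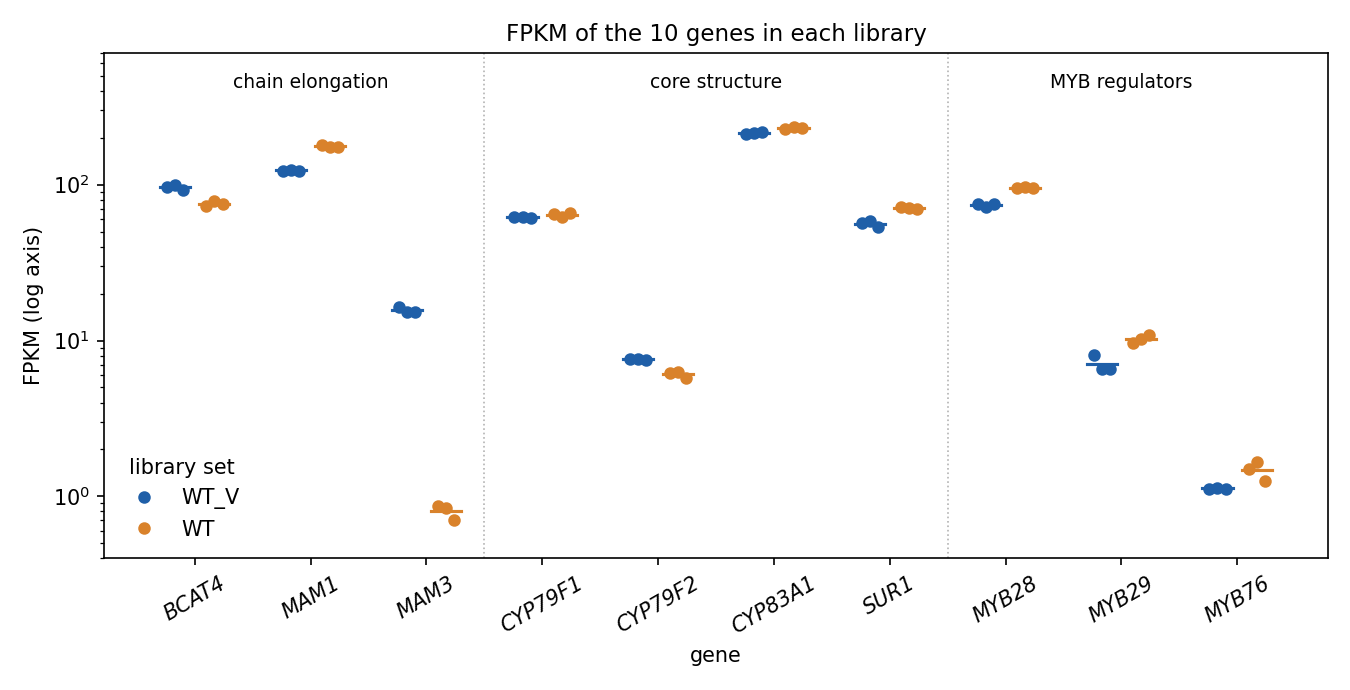
FPKM of each of the 10 genes (log axis) in the 3 WT_V and 3 WT libraries, as 1 point per library with a bar at the mean, grouped by role. MAM3 was between 15.3 and 16.3 FPKM in WT_V and between 0.707 and 0.868 FPKM in WT, while the sets of CYP79F1 overlapped.

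Among the elongation genes, BCAT4, the aminotransferase at the entry of the pathway, measured 96.1, 99.5 and 93.0 FPKM in WT_V and 73.4, 78.0 and 75.1 FPKM in WT. The sets did not overlap. The WT_V mean was 1.27 times the WT mean (log2 difference 0.35 ± 0.032, SE, 3 libraries a set, limma adjusted p = 2.75e-06). MAM1, a methylthioalkylmalate synthase that adds carbon to short side chains, measured 123.0, 124.1 and 123.0 FPKM in WT_V and 179.8, 174.5 and 175.8 FPKM in WT. Every WT_V library was lower than every WT library, by a log2 difference of -0.51 ± 0.020 (SE; limma adjusted p = 2.31e-09). That difference lay at percentile 6.90 of the differences of all tested genes, counted from the lowest.

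MAM3, the synthase that also makes long side chains, measured 16.3, 15.3 and 15.3 FPKM in WT_V and 0.868, 0.847 and 0.707 FPKM in WT. The gap between the sets was far wider than the spread within either. The log2 difference was 3.20 ± 0.073 (SE), given without a p because only the WT_V libraries brought the gene past the filter. On this scale the pseudocount of 1 understates the change, and the difference was 4.12 with a pseudocount of 0.1 and 1.83 with a pseudocount of 5. The counts behind MAM3, worked out from its exon length, were 1471, 1425 and 1325 in WT_V and 64, 72 and 53 in WT, so the WT level rested on few but not on single counts.

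In WT, MAM3 had the lowest level of the 10 genes, and in WT_V it ranked seventh, above CYP79F2, MYB29 and MYB76. Within each library, MAM3 stood at 13.3, 12.3 and 12.4% of the MAM1 level in WT_V and at 0.483, 0.485 and 0.402% in WT. A ratio within a library is not moved by a single scaling factor per library, but quantile normalization, which moves genes unequally, does change it. The log2 of this ratio differed by 4.80 ± 0.096 (SE), with no overlap, at an exact two-sided permutation p = 0.1 (adjusted p = 0.25 over 5 ratios), the smallest that 3 against 3 libraries allow. MAM3 took 11.71, 10.96 and 11.06% of the summed MAM1 and MAM3 level in WT_V and 0.4805, 0.4831 and 0.4004% in WT. The sum itself was 139.4, 139.4 and 138.3 FPKM in WT_V and 180.7, 175.4 and 176.5 FPKM in WT, so the pair together was lower in WT_V. The coding sequences of the pair in RefSeq TAIR10.1 were identical at 83.8% of 1512 aligned bases, with a longest shared run of 30 bases, and no other protein-coding gene lies between them.

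The core structure genes differed less than MAM1 and MAM3, though SUR1 (-0.34) was about as far from 0 as BCAT4 (0.35). CYP79F1, the cytochrome P450 that converts methionine derivatives of short and long chain length, measured 62.0, 61.6 and 61.2 FPKM in WT_V and 64.4, 61.8 and 65.8 FPKM in WT. These ranges overlapped, and the log2 difference of -0.053 ± 0.030 (SE) did not pass (limma adjusted p = 0.122, 95% interval -0.12 to 0.012). Median-of-ratios scaling made it a call of lower (-0.22, adjusted p = 4.30e-05), and so did leaving out WT replicate 2 (-0.079, adjusted p = 0.0348).

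CYP79F2, its tandem copy with a preference for long chains, measured 7.59, 7.65 and 7.51 FPKM in WT_V and 6.18, 6.29 and 5.74 FPKM in WT. The sets were apart, at a log2 difference of 0.28 ± 0.061 (SE; limma adjusted p = 0.00169), but median-of-ratios scaling ended the call (0.13, adjusted p = 0.0780), and the direction turned with quantile normalization (-0.13, adjusted p = 0.0698). The ratio of CYP79F2 to CYP79F1 within a library was 12.2, 12.4 and 12.3% in WT_V and 9.60, 10.2 and 8.72% in WT. It was higher in all 3 WT_V libraries than in any WT library (log2 difference 0.38 ± 0.066 SE, exact two-sided permutation p = 0.1, adjusted p = 0.25 over 5 ratios). The ratio was not computed after quantile normalization, where the log2 difference was -0.13 for CYP79F2 and -0.065 for CYP79F1. The 2 coding sequences were identical at 91.4% of 1614 aligned bases and shared a run of 100 bases. The authors' handling of reads that match both copies is not given in the sources used here, so the level of each copy is uncertain.

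CYP83A1, the next P450 in the chain, had the highest level of the 10 genes in both sets. It measured 211.4, 214.5 and 217.0 FPKM in WT_V and 228.6, 234.8 and 230.6 FPKM in WT. The sets did not overlap and the WT_V mean was 0.926 times the WT mean (log2 difference -0.11 ± 0.019 SE, limma adjusted p = 0.000332), a difference that was turned round to 0.071 with quantile normalization (adjusted p = 0.0128). The ratio of CYP79F1 to CYP83A1, the successive P450 steps, was 29.3, 28.7 and 28.2% in WT_V and 28.2, 26.3 and 28.5% in WT, and these ranges overlapped (log2 difference 0.056 ± 0.040 SE, exact two-sided permutation p = 0.2, adjusted p = 0.333 over 5 ratios). That difference was 0.0198 without WT replicate 2.

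SUR1, the C-S lyase that the aliphatic and indole branches share, measured 56.6, 58.3 and 53.5 FPKM in WT_V and 72.3, 71.0 and 70.1 FPKM in WT. It was lower in each WT_V library than in any WT library, at 0.789 times the WT mean (log2 difference -0.34 ± 0.034 SE, limma adjusted p = 5.20e-06). The order of the core genes differed between the sets. In WT_V, CYP79F1 stood above SUR1, and in WT, SUR1 stood above CYP79F1, with no overlap between the neighbours in either set.

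**Figure D3:**
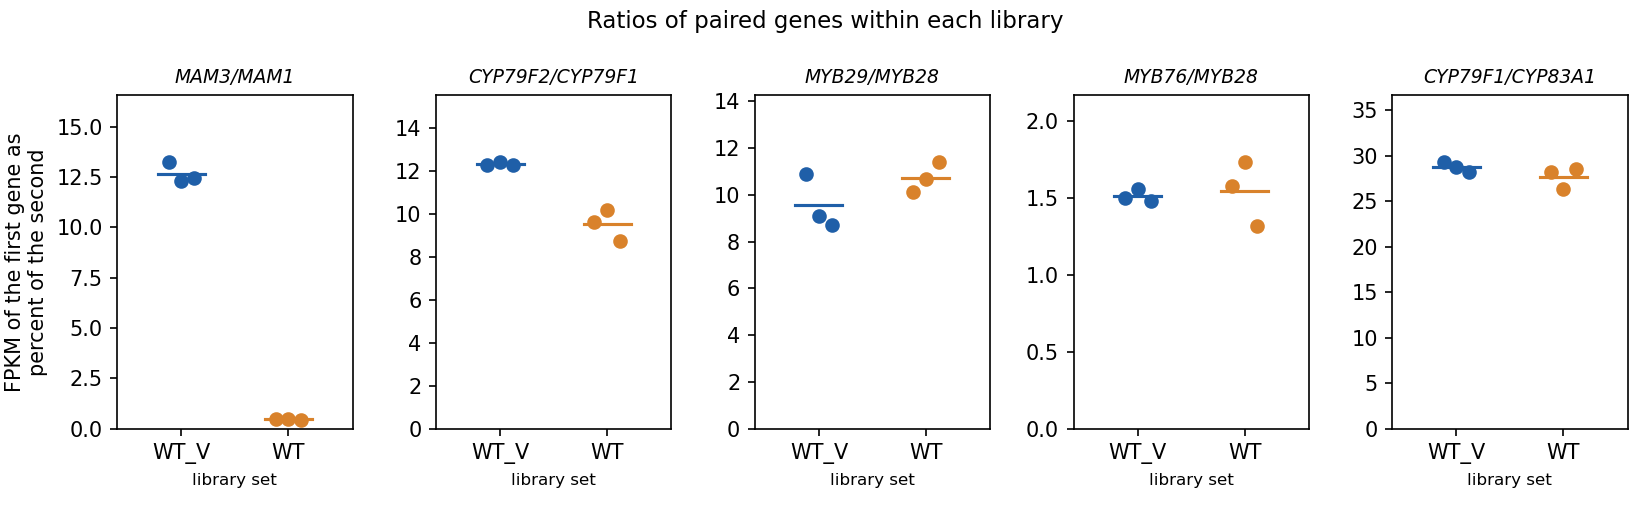
FPKM of 1 gene as a percentage of another in the same library, with 1 point per library, a bar at the mean and linear axes from 0, for WT_V (left in each panel) and WT (right). MAM3/MAM1 averaged 12.7% in WT_V and 0.457% in WT, and CYP79F2/CYP79F1 ranged over 12.2 to 12.4% in WT_V and 8.72 to 10.2% in WT, while the points of the other ratios overlapped between sets.

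The regulators were lower in WT_V or did not pass. MYB28 measured 74.7, 72.3 and 75.6 FPKM in WT_V and 95.0, 96.1 and 95.7 FPKM in WT. The sets were well apart, with the WT_V mean at 0.776 times the WT mean (log2 difference -0.36 ± 0.025 SE, limma adjusted p = 2.61e-07). MYB29, the helper of MYB28 in the short-chain branch, measured 8.12, 6.57 and 6.60 FPKM in WT_V and 9.63, 10.2 and 10.9 FPKM in WT. WT_V replicate 1 stood nearest to WT but still under it, and the WT_V mean was 0.691 times the WT mean (log2 difference -0.48 ± 0.082 SE, limma adjusted p = 0.00031). MYB76, an accessory regulator that lies next to MYB29 on chromosome 5, measured 1.12, 1.13 and 1.12 FPKM in WT_V and 1.497, 1.670 and 1.262 FPKM in WT.

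The MYB76 sets were apart, yet the log2 difference of -0.22 ± 0.099 (SE) did not pass (limma adjusted p = 0.0667). At this level the pseudocount and the scaling decided the size, from -0.080 with a pseudocount of 5 to -1.10 with quantile normalization. MYB76 was called lower with quantile normalization (adjusted p = 3.71e-06) and median-of-ratios scaling (-0.31, adjusted p = 0.0151). The same held when no filter was set (adjusted p = 0.0483), when no trend was fitted (adjusted p = 0.0176) or when WT replicate 3 was left out (-0.28, adjusted p = 0.0424).

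MYB28 made up most of the transcript of the 3 regulators in both sets, with 89.0 to 90.7% of their summed FPKM in WT_V and 88.7 to 89.5% in WT. The sum was 83.95, 79.97 and 83.35 FPKM in WT_V and 106.1, 108.0 and 107.8 FPKM in WT. The proportions among the MYB genes overlapped between the sets. MYB29 stood at 10.9, 9.09 and 8.72% of MYB28 in WT_V and at 10.1, 10.7 and 11.4% in WT (log2 difference -0.17 ± 0.11 SE, exact two-sided permutation p = 0.3, adjusted p = 0.375 over 5 ratios). It was -0.269 without WT_V replicate 1 and -0.109 without WT_V replicate 3. MYB76 stood at 1.5, 1.56 and 1.48% of MYB28 in WT_V and at 1.58, 1.74 and 1.32% in WT (log2 difference -0.019 ± 0.12 SE, exact two-sided permutation p = 0.9, adjusted p = 0.9 over 5 ratios). The direction of the last ratio was not fixed, as it was 0.143 with a pseudocount of 1 added to both genes.

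Set in order of level, the 10 genes ran in WT_V as CYP83A1, MAM1, BCAT4, MYB28, CYP79F1, SUR1, MAM3, CYP79F2, MYB29 and MYB76. Neighbours in this order were apart in all 3 libraries except for CYP79F2 and MYB29, whose ranges overlapped. In WT the order was CYP83A1, MAM1, MYB28, BCAT4, SUR1, CYP79F1, MYB29, CYP79F2, MYB76 and MAM3, with no overlap between neighbours. MYB28 thus stood under BCAT4 in WT_V and above it in WT. The summed level of all 10 genes was 657.0, 660.9 and 653.8 FPKM in WT_V and 731.7, 735.3 and 731.7 FPKM in WT. The values of 1 set stood apart from those of the other for 9 of the 10 genes, where 77.6% of all tested genes did so.

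Because the scaling bears on small differences, each was also read against the general shift. Over all tested genes the median was 0.17 on the log2 scale as deposited, 0.014 after median-of-ratios scaling and -0.090 after quantile normalization. Relative to that median, MAM3 was at 3.04, 3.07 and 2.79 under the 3 scalings, and MAM1 at -0.68, -0.70 and -0.29. MYB28 was at -0.53, -0.54 and -0.23, MYB29 at -0.65, -0.65 and -0.75, and SUR1 at -0.50, -0.52 and -0.25. MYB76 was at -0.39, -0.33 and -1.01, and BCAT4 at 0.18, 0.16 and 0.49. In the same order, CYP79F2 was at 0.11, 0.12 and -0.040, CYP79F1 at -0.22, -0.24 and 0.025, and CYP83A1 at -0.28, -0.29 and 0.16. Before the median was taken off, BCAT4 differed by 0.35 as deposited, 0.18 after median-of-ratios scaling and 0.40 after quantile normalization. CYP79F2 differed by 0.28, 0.13 and -0.13. The part of the general shift in these differences thus depended on the scaling. MAM1, SUR1, MYB28 and MYB29 were called lower, and BCAT4 higher, under all 3 scalings. With median-of-ratios scaling, 2 members were called higher (MAM3 included) and 7 lower, where 37.9% and 35.5% of all tested genes were. With quantile normalization, 3 were called higher (MAM3 included) and 5 lower, where 29.8% and 44.9% were. The MAM3 call in each count is no support, as only the WT_V libraries brought the gene past the filter.

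**Figure D4:**
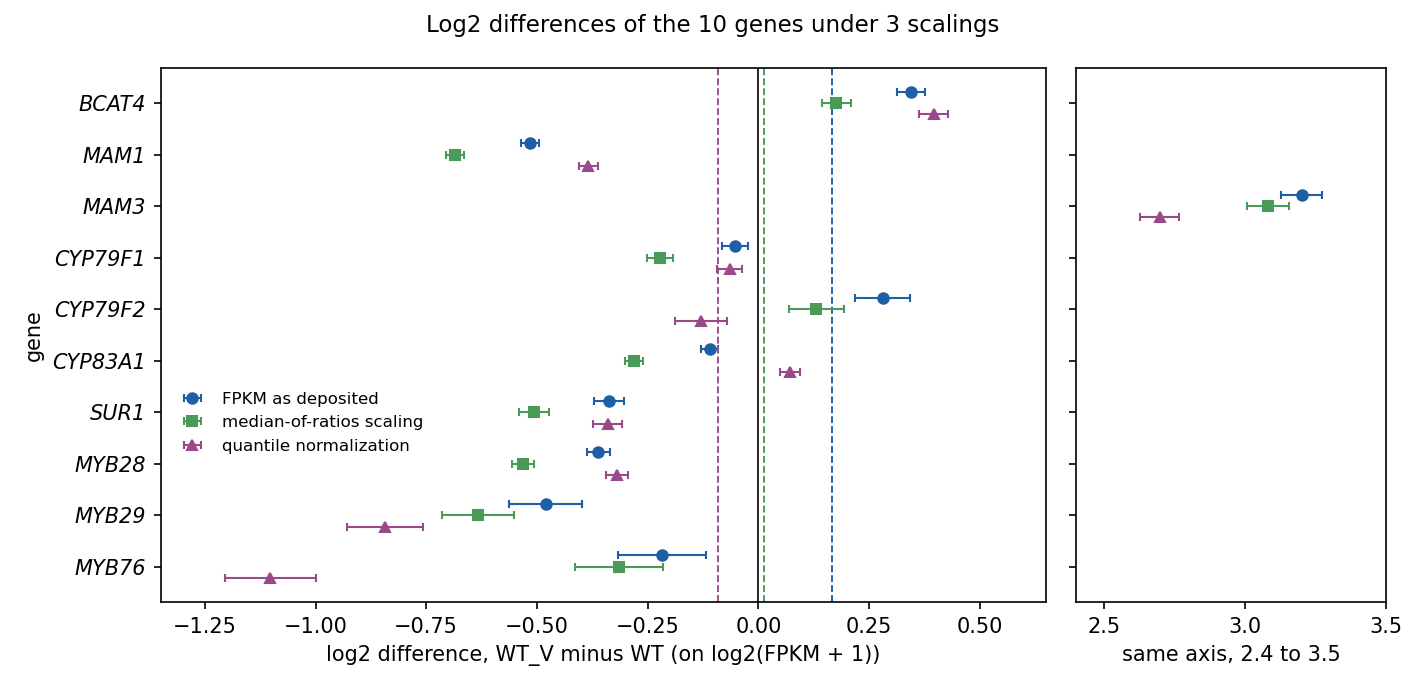
Log2 difference (WT_V minus WT, on log2(FPKM + 1)) of each gene with its SE under 3 scalings, drawn in 2 stretches of the same axis. Dashed lines mark the all-gene median under each scaling (0.17, 0.014 and -0.090), and MAM3 lies far to the right of every other gene while CYP79F2 and CYP83A1 change sides with quantile normalization.

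The rest of the pathway was taken from 10 lists with 71 loci, of which 70 were in the table and 63 passed the filter. AOP2 was not analysed here. Of these 63, 33 were called higher and 21 lower in WT_V and 9 did not pass, where 51.9% of all tested genes were called higher and 24.1% lower. The same shares are the background for the counts of each list below. The median of the 63 log2 differences was 0.12. With median-of-ratios scaling the split was 19 higher to 30 lower, where 37.9% and 35.5% of all tested genes were called. With quantile normalization it was 25 higher to 22 lower, where 29.8% and 44.9% were. A WT mean under 1 FPKM was found for 4 of the 33 called higher, so these passed the filter through the WT_V libraries. GSTF11, CYP81F1 and MYC2 were listed at 0 in all 6 libraries.

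The other elongation genes went both ways, with 3 of 6 higher, 2 lower and 1 not passed (median log2 difference 0.021). IMD1, the isopropylmalate dehydrogenase of this branch, measured 60.2, 62.9 and 62.1 FPKM in WT_V and 44.1, 40.9 and 42.3 FPKM in WT (log2 difference 0.53 ± 0.034 SE, limma adjusted p = 1.38e-07). IPMI1, a small subunit of the isomerase, was higher by 0.16 (adjusted p = 0.00117), a direction lost with median-of-ratios scaling (-0.0075). Lower were BCAT3, the plastid aminotransferase that closes the cycle, at 54.6 ± 1.91 against 67.3 ± 2.78 FPKM in WT, and BAT5, the plastid carrier of the keto acids, at 26.5 ± 0.78 against 31.4 ± 0.83 FPKM in WT (SD, n = 3). The entry aminotransferase BCAT4 was thus higher and the closing one, BCAT3, lower in the same libraries.

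Among the other core genes, 3 of 6 tested were higher, 2 lower and 1 not passed (median 0.093). GSTU20, a glutathione transferase, was higher at 204.7 ± 3.60 FPKM in WT_V and 169.7 ± 1.19 FPKM in WT (SD, n = 3; limma adjusted p = 3.89e-07). UGT74B1, a glucosyltransferase, was lower at 39.4 ± 0.57 against 53.6 ± 0.60 FPKM in WT (adjusted p = 1.55e-07). AT2G31790, the other glucosyltransferase gene of the list, did not pass, at 25.5 ± 0.75 against 25.3 ± 0.65 FPKM in WT (limma adjusted p = 0.818). The sulfotransferases of the last step parted, with SOT18 lower at 50.6 ± 2.34 against 61.1 ± 3.21 FPKM in WT and SOT17 higher at 25.1 ± 0.74 against 21.7 ± 1.28 FPKM in WT. Neither median-of-ratios scaling (adjusted p = 0.5004) nor quantile normalization (adjusted p = 0.249) kept the SOT17 call.

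Of the genes that modify the side chain, 6 of 9 tested were higher, 2 lower and 1 not passed (median 0.44). Among all tested genes 51.9% were called higher and 24.1% lower. AOP3, an oxygenase that makes hydroxypropyl glucosinolates, stood at 23.9, 23.6 and 22.6 FPKM in WT_V and was listed at 0, 0.012 and 0 FPKM in WT. BZO1, a benzoyl-CoA ligase known for the benzoyloxy glucosinolates of seeds, measured 5.05, 5.15 and 5.29 FPKM in WT_V and 0.248, 0.113 and 0.103 FPKM in WT. Like MAM3, both genes were under 1 FPKM in every WT library, and the 9 seed markers summed to 15552 to 15809 FPKM in WT_V and to 0.0353 FPKM or less in WT; their part in these differences was not tested. FMO GS-OX4, a sulfur-oxidising monooxygenase, was 3.51 times as high in WT_V (10.1 ± 0.21 against 2.87 ± 0.039 FPKM in WT, SD, n = 3). Its listed relatives went both ways. FMO GS-OX2 was lower at 20.0 ± 0.56 against 30.8 ± 1.96 FPKM in WT, and FMO GS-OX1 at 10.8 ± 0.73 against 12.2 ± 0.67 FPKM. FMO GS-OX5 was higher at 21.5 ± 0.47 against 15.6 ± 1.52 FPKM in WT, and FMO GS-OX3 did not pass. AOP1 measured 5.21 ± 0.42 FPKM in WT_V and 3.05 ± 0.89 FPKM in WT, a call that quantile normalization did not keep (adjusted p = 0.544).

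Indole glucosinolate enzymes split into 3 higher, 4 lower and 2 not passed of 9 tested (median -0.16). CYP79B2, which starts the indole branch from tryptophan, was higher at 15.8 ± 0.84 against 10.4 ± 0.71 FPKM in WT (SD, n = 3). Lower were IGMT1, a methyltransferase of indole glucosinolates, at 0.503 times the WT mean, and the glutathione transferase gene GSTF10 at 0.664 times. IGMT2, a listed copy of IGMT1, went the other way at low levels and fell under the filter, so it was not tested. It measured 0.993, 0.931 and 1.11 FPKM in WT_V and 0.0352, 0.122 and 0.0173 FPKM in WT. GSTF9 was lower at 0.737 times, and turned to a log2 difference of 0.080 with quantile normalization. GSTF9 and GSTF10, like IGMT1 and its copies, are close relatives among which shared reads could be split. Both tested MYB regulators of the indole branch were lower. MYB34 measured 5.92, 8.36 and 6.63 FPKM in WT_V and 14.1, 13.9 and 15.8 FPKM in WT (log2 difference -0.98 ± 0.10 SE, limma adjusted p = 5.83e-06), and MYB51 16.3 ± 0.88 against 19.7 ± 1.58 FPKM in WT (adjusted p = 0.00305). The lower MYB28 and MYB29 levels thus stood beside lower MYB34 and MYB51 levels.

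Other regulators counted 3 higher, 2 lower and 1 not passed of 6 tested (median 0.083). MYC4, a partner of the MYB factors, was lower at 35.7 ± 2.11 FPKM in WT_V and 51.9 ± 1.17 FPKM in WT (SD, n = 3; limma adjusted p = 7.46e-07). ATSDI1, induced by sulfur deficiency and known to hold back MYB28, was lower at 119.5 ± 1.21 against 180.1 ± 2.44 FPKM in WT (adjusted p = 8.28e-10). IQD1, a calmodulin-binding regulator, and SLIM1, the sulfur limitation factor, were higher by 0.35 and 0.23 on the log2 scale, and both had negative values with quantile normalization (-0.097 and -0.10). The SLIM1 call also ended with median-of-ratios scaling (adjusted p = 0.294). Sulfate activation genes, which supply the sulfate donor of the last step, gave 3 higher, 3 lower and 1 not passed of 7 (median -0.001). APR3 was lower at 175.0 ± 3.01 against 239.4 ± 0.39 FPKM in WT (adjusted p = 4.12e-09). APS3, APR2 and APK2 were higher by 0.28, 0.17 and 0.17 on the log2 scale, and median-of-ratios scaling kept none of these calls (adjusted p = 0.0637, 0.955 and 0.940).

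Both glucosinolate importers were higher. GTR2 measured 82.3, 81.8 and 80.6 FPKM in WT_V and 49.1, 52.5 and 51.6 FPKM in WT (log2 difference 0.67 ± 0.030 SE, limma adjusted p = 7.54e-09). GTR1 measured 32.7, 31.7 and 32.0 FPKM in WT_V and 18.7, 20.2 and 20.5 FPKM in WT, with a log2 difference of 0.67 as well. Of 11 tested breakdown genes, 7 were higher, 3 lower and 1 not passed (median 0.46).

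ESP, the epithiospecifier protein that directs breakdown to nitriles and epithionitriles, measured 513.2, 519.1 and 516.8 FPKM in WT_V and 7.89, 8.31 and 7.16 FPKM in WT. It was 66.3 times as high in WT_V (log2 difference 5.88 ± 0.042 SE, limma adjusted p = 3.88e-15). ESM1, which favours isothiocyanates over nitriles, was lower, at 277.4 ± 3.91 against 607.7 ± 5.52 FPKM in WT (SD, n = 3; adjusted p = 8.55e-13). NSP2, a nitrile specifier gene known from seeds, stood at 27.4, 25.4 and 26.2 FPKM in WT_V and was listed at 0 in all 3 WT libraries. The seed marker sums stand beside the NSP2 and ESP differences, as do those of the flower, green tissue, xylem and phloem markers. The part of any of them was not tested. NSP5 measured 441.7 ± 2.68 FPKM in WT_V and 174.1 ± 3.11 FPKM in WT. TGG1, the main myrosinase gene, was named after its values were seen, at 533.4 ± 4.98 FPKM in WT_V and 295.3 ± 5.46 FPKM in WT (adjusted p = 1.35e-11), with a close copy, TGG2, that could share its reads. NSP1, a further nitrile specifier gene also named after its values were seen, was lower. It measured 89.5 ± 1.68 FPKM in WT_V and 164.3 ± 1.47 FPKM in WT (SD, n = 3, limma adjusted p = 7.17e-11). Its log2 difference of -0.87 was larger in size than the 0.85 of TGG1.

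The leucine synthesis relatives of the elongation enzymes differed by small amounts. Of 5 tested, 3 were higher, 1 lower and 1 not passed, at a median log2 difference of 0.14, near the 0.17 of all tested genes. IPMS1 and IPMS2, the isopropylmalate synthases related to MAM1 and MAM3, were higher by 0.14 and 0.17, and IMD3, a dehydrogenase, by 0.23. None of these 3 was called with median-of-ratios scaling. AT2G43090 differed by -0.080 on the log2 scale (adjusted p = 0.0128), and that call ended with no trend (adjusted p = 0.0757), with quantile normalization (adjusted p = 0.908) and when WT replicate 1 was left out (adjusted p = 0.0527). The IPMS2 call ended when WT_V replicate 1 (0.14, adjusted p = 0.0717) or WT replicate 1 (0.14, adjusted p = 0.0546) was left out.

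**Figure D5:**
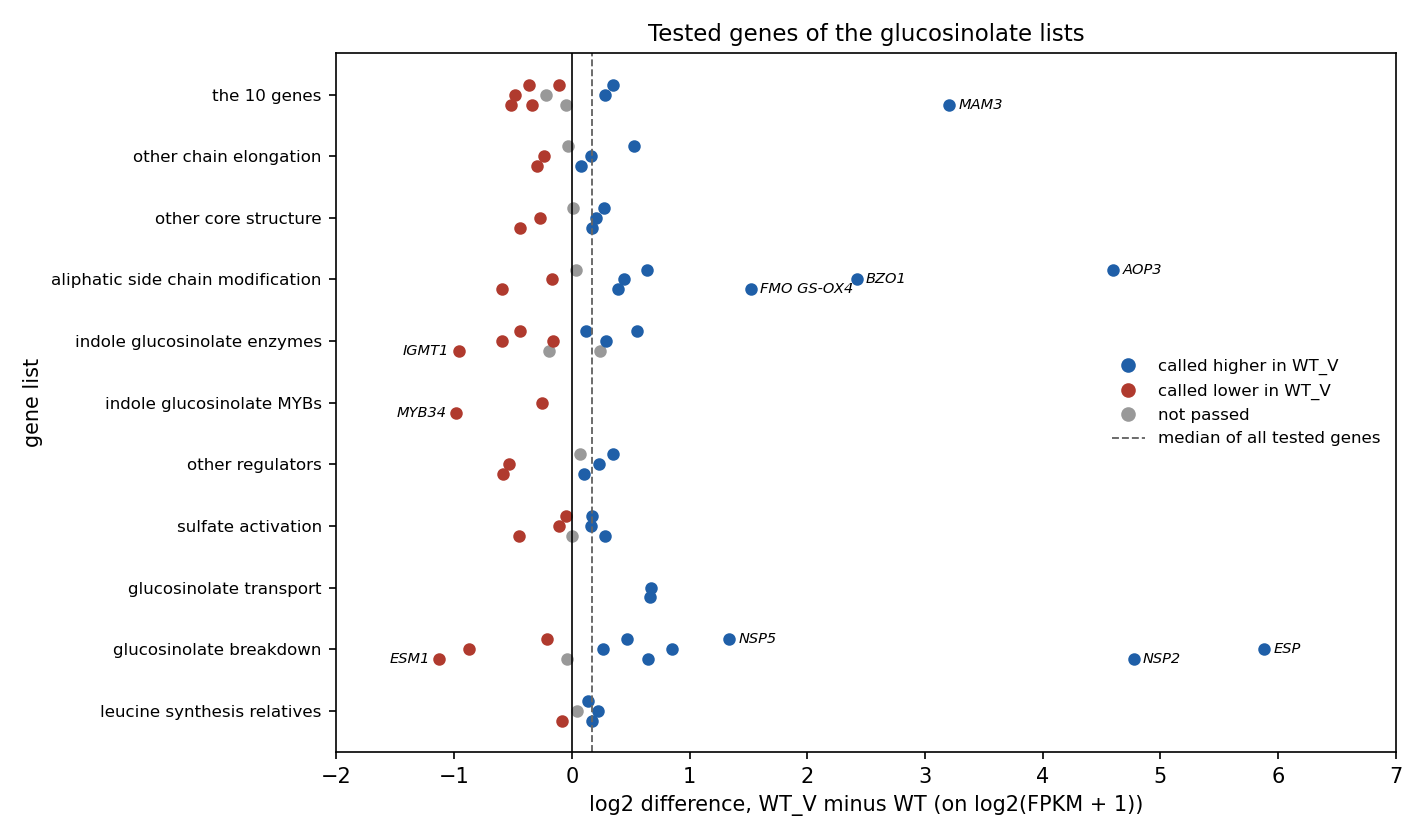
Log2 difference (WT_V minus WT, on log2(FPKM + 1)) of every tested gene of the 10 members and of 10 further lists, with 1 point per gene coloured by its call and points spread vertically for legibility. MAM3, AOP3, BZO1, NSP2 and ESP lie at 2.42 to 5.88, apart from most other genes, which lie between about -1 and 1.

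MYB28 had close company in its pattern over the libraries. The 3 genes outside the members with the highest Pearson correlation of log2(FPKM + 1) with MYB28 over the 6 libraries were AT3G56290 (0.9998), COPT6, a copper transporter (0.9997), and PIFI (0.9995). As an example, AT3G56290 measured 21.5, 19.8 and 21.7 FPKM in WT_V and 34.7, 35.1 and 34.9 FPKM in WT. Of 19134 genes compared, 726 exceeded 0.99. The 6 libraries form 2 separate sets, so a steady difference between the sets gives a high value, and this likeness is a description only.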

How the data were processed

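The authors deposited 1 table of FPKM for 34484 identifiers in 6 libraries from total RNA. TopHat2 2.0.12, Bowtie2 2.2.3 and HTSeq 0.6.1 appear in the submitters' processing notes. Genome build, annotation, strand setting and treatment of reads matching several genes: not given in the sources used here. Identifiers at 0 in all 6 libraries numbered 7247. Locus names came from RefSeq TAIR10.1, whose build may not be that of the files, so no coordinates or sequences are given.

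Depth was recovered from the FPKM steps of genes with a single transcript. Multiplied by exon length, 99.02 to 99.23% of values under 5000 counts were whole within 0.02 counts. The scaling total was 40307736 to 51012957, and 1 count in 1 kb was worth 0.0196 to 0.0248 FPKM. Counts were recovered for 5 members, not for the 5 with several transcripts, and were not used for testing.

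With R 4.3.3, limma 3.58.1 with a trend in the variance was fitted to log2(FPKM + 1) of genes averaging at least 1 FPKM, as WT_V minus WT, after checking the procedure on simulated data. Few genes differed in that simulation, equally up and down, so it does not show how calls behave where 76.0% of genes are called. Ratios of paired genes were tested by exact permutation over libraries. Coding sequences were aligned with Biopython 1.88, and Python 3.11.15 with matplotlib 3.10.9 drew the figures. The members and the gene lists were chosen with earlier results of these data known. All members were named, with up to 4 called genes per list by greatest absolute log2 difference and the 3 genes most like MYB28. TGG1, NSP1, IGMT2, AT2G31790, FMO GS-OX1, FMO GS-OX2, FMO GS-OX3 and FMO GS-OX5 are among those named outside this rule, after their values were seen.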

Additional observations from a re-analysis of the deposited data

How the results depend on the processing

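Besides leaving out each library, the alternatives were quantile normalization, median-of-ratios scaling, pseudocounts of 0.1 and 5, a fit with no trend, a replicate block, and a filter at 5 FPKM or none. Of the 19144 tested genes 14550 were called. Under these settings the number ran from 11202 of 14427 tested (filter at 5 FPKM) to 16975 of 27237 tested (no filter). The number tested thus differed with the filter. Each count of members called higher below includes MAM3, whose call is no support. Leaving out 1 library gave 13743 to 14154 genes, with 9445 to 9711 higher and 4298 to 4443 lower of the 19144 tested. Among them were 3 members higher, 5 to 6 members lower, 30 to 33 other pathway genes higher and 19 to 22 lower. With the replicate block 14477 genes were called, 9868 higher and 4609 lower of the 19144 tested. Among them were 3 members higher and 5 lower, and 33 other pathway genes higher and 21 lower. The block changed no call of a member or of another gene named by the rule. The numbers did not pair libraries, as deviations of same-numbered libraries correlated at -0.016, -0.016 and 0.014.

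Median-of-ratios scaling lowered the other pathway genes called higher to 19. It reversed IPMI1 (-0.0075), APK2 (-0.0034) and IPMS1 (-0.025). Quantile normalization reversed CYP79F2 (-0.13), CYP83A1 (0.071), GSTF9 (0.080), IQD1 (-0.097), SLIM1 (-0.10) and IPMS2 (-0.0082). The MYB76/MYB28 log2 ratio difference of -0.019 was 0.143 with a pseudocount of 1 added to both, and -0.128 to 0.0711 with 1 library left out, positive without WT replicate 1 (0.00091) or WT replicate 2 (0.0711). The cause was not tested. Leaving out 1 library moved the ratio difference of MAM3/MAM1 between 4.71 and 4.84, of CYP79F2/CYP79F1 between 0.316 and 0.428, of MYB29/MYB28 between -0.269 and -0.109 and of CYP79F1/CYP83A1 between 0.0198 and 0.079. The calls of MAM1, BCAT4, SUR1, MYB28 and MYB29 kept side and direction under every alternative run. MAM3, whose call is no support, had log2 differences of 1.83 to 4.12 over the settings. MYB76, with a mean near 1 FPKM, was under the minimum of 5 FPKM and has no value there.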
